A study of Homo sapiens with 12 samples.

Results

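TFK1 cells treated with both nab-paclitaxel and radiation were compared with TFK1 cells treated with nab-paclitaxel alone, to measure what radiation did to the RNA of drug-treated cells. TFK1 is an established human cell line from a bile duct cancer (cholangiocarcinoma), labelled wild type. All cells of this comparison received nab-paclitaxel at 1.62 ng/ml, a form of paclitaxel bound to albumin. The 3 libraries of the combination group also received radiation at 6 Gy, and the 3 libraries of the nab-paclitaxel group did not. These 6 of the 12 libraries of the series were chosen by their labels. The other 6 libraries are 3 of untreated control cells and 3 of cells given 6 Gy without drug, and they served for the same radiation contrast in the absence of drug. RNA was taken at 24 hours of treatment in every group, and the labels do not give the order of drug and radiation. All 13609 of the 58735 listed genes whose mean over the 12 libraries reached 1 FPKM (fragments per kilobase of gene, scaled for library size) were tested, 11227 of them protein coding. The series addresses how the drug raises the sensitivity of these cells to radiotherapy. The labels number the libraries as biological replicates and do not say whether the cultures were separate, so p-values measure the spread between these samples, which may be technical.

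Ionizing radiation breaks DNA. Kinases that sense the breaks stabilise p53, which induces the cyclin-dependent kinase inhibitor p21 (CDKN1A). With cyclin-dependent kinases held back, the RB family proteins keep E2F factors from driving the genes of DNA synthesis, and the related DREAM complex represses genes of mitosis. Paclitaxel acts elsewhere, by stabilising microtubules, so that cells are held in mitosis or leave it with errors.

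The libraries of the comparison held 16057485 to 17992242 recovered fragments. Biliary keratins and adhesion genes were high, with KRT19 at a mean of 419 FPKM and EPCAM at 107, and 15 of 27 biliary genes reached 1 FPKM. Of 19 macrophage genes, 1 did (ITGAX, mean 1.9 FPKM), C1QA, C1QB and C1QC were listed at 0 in every library, and the summed level of the list was 2.03 to 2.88 FPKM with drug alone and 3.60 to 4.06 with the combination. Of 15 fibroblast genes, 5 reached 1 FPKM, POSTN was listed at 0, and the sums were 38.0 to 44.3 and 36.8 to 38.6 FPKM. Of 15 lymphocyte and endothelial genes none did. On the second principal component of all 12 libraries, nab-paclitaxel 1 and combination 2 lay highest of their groups, and their deviations from their group means correlated across genes (r = 0.33), as did those of control 2 with each of them (0.46 and 0.54). List counts and lost calls are therefore also given without nab-paclitaxel 1 and combination 2, a choice made after seeing the data. Control 2 stayed in those fits and their shared spread. Results with control 2 left out as well are given where the dependence on processing is described.

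In drug-treated cells radiation lowered genes of DNA replication, mitosis and the endoplasmic reticulum, and raised p53 target genes and a few interferon-stimulated genes. The limma model, adjusted over all genes tested at an adjusted p of 0.05, called 533 genes (3.92%), of which 165 rose (1.21%) and 368 fell (2.7%). Most changes were moderate. A log2 fold change of at least 1, on the log2(FPKM + 1) scale used throughout, was found for 10 of the genes that rose and 12 of those that fell. In all 533 the 3 combination libraries lay wholly above or wholly below the 3 nab-paclitaxel libraries, as they did in 20.9% of all genes tested (8.66% with the combination higher and 12.3% with it lower). The median change of all genes was -0.02. Quantile normalization called 196 higher and 273 lower, and a voom fit on the recovered fragments 240 higher and 331 lower, so the share of rises was 41.8% and 42.0% there against 30.96% here. TPM scaling called 108 higher and 347 lower, a share of 23.7%. The count fell to 93 when the 6 libraries were fitted without the other groups, and to 255 without nab-paclitaxel 1 and combination 2. Leaving out single libraries gave between 177 (without combination 3) and 734 (without control 2), with 274 without combination 1, 284 without combination 2, 323 without nab-paclitaxel 2, 332 without nab-paclitaxel 3, and 323, 341 and 334 without radiation 1, 2 and 3.

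**Figure D1:**
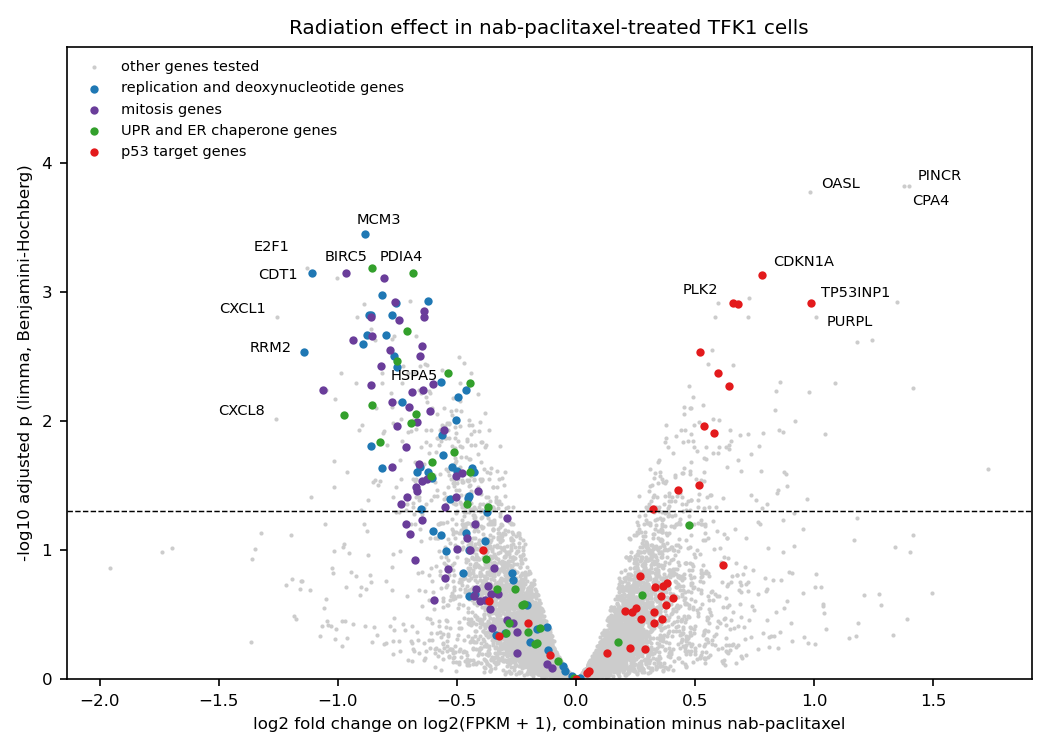
Each point is a gene tested: its log2 fold change on log2(FPKM + 1), combination minus nab-paclitaxel (x axis), against -log10 of its adjusted p from limma (y axis), with the dashed line at 0.05. Replication, mitosis and endoplasmic reticulum genes past the line lie on the left, p53 target genes on the right.

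The replication genes were the list with the highest share of falls. Of 46 tested genes for licensing origins and running the replication fork, 30 fell and 0 rose, with a median change of -0.55. In RNA from whole cultures, fewer cells in a phase of the cycle and less RNA per cell cannot be told apart. MCM3, a subunit of the helicase that unwinds DNA at origins (chr6:52264009-52284881, hg38, minus strand), read 38.3, 35.4 and 34.5 FPKM in the nab-paclitaxel libraries and 20.2, 18.6 and 18.4 in the combination libraries. The groups were far apart and each was tight. Its log2 fold change was -0.89 ± 0.08 (SE, adjusted p = 3.56e-04). CDT1, which loads that helicase onto origins (chr16:88803213-88809258, plus strand), read 25.3, 29.8 and 24.9 FPKM with drug alone and 11.8, 11.4 and 12.2 with the combination. No combination library came near the lowest nab-paclitaxel library, and the change was -1.11 ± 0.11 (adjusted p = 7.12e-04). MCM10 changed by -0.81 ± 0.09 and MCM4 by -0.62 ± 0.07, and CDC6 and ORC1, which act with CDT1 at origins, by -0.76 and -0.87. Among further fork genes, FEN1, the flap nuclease of lagging strand synthesis, changed by -0.89 ± 0.12. Of the 46, 20 fell without nab-paclitaxel 1 and combination 2, and 10 with only the 6 libraries fitted.

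Enzymes that make deoxynucleotides fell alongside, 5 of 13 with 0 rises and a median of -0.43. RRM2, the regulated subunit of ribonucleotide reductase (chr2:10120698-10131419, plus strand), read 23.5, 16.6 and 15.97 FPKM with drug alone and 7.08, 8.58 and 7.80 with the combination. Nab-paclitaxel 1 was the highest of its group, and all 3 combination libraries lay below the group's lowest. RRM2 changed by -1.14 ± 0.16 (adjusted p = 0.00294). TK1, the S-phase thymidine kinase, went from 67.7 ± 7.72 to 36.4 ± 4.11 FPKM (SD, n = 3). Of the 13 enzymes 3 fell without nab-paclitaxel 1 and combination 2.

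The cyclins and E2F genes of the G1/S step split: 11 of 27 fell and 1 rose. E2F1, the activator of many replication genes (chr20:33675683-33686404, minus strand), read 13.6, 12.4 and 10.7 FPKM with drug alone and 5.65, 4.93 and 4.54 with the combination. All drug-only libraries lay well above all combination libraries. E2F1 changed by -1.13 ± 0.11 (adjusted p = 6.47e-04). MYBL2, a partner of the DREAM core proteins, changed by -1.01 ± 0.16, and UHRF1, which maintains DNA methylation at the fork, by -0.81 ± 0.12. The gene that rose was CCND1, cyclin D1, from 170 ± 4.91 to 210 ± 6.12 FPKM (0.31 ± 0.07, adjusted p = 0.0346). CCNE1, cyclin E1, was at 10.4 ± 0.625 and 9.82 ± 1.01 FPKM and did not pass (adjusted p = 0.728). In this list 5 fell and 0 rose without nab-paclitaxel 1 and combination 2, and 3 fell with only the 6 libraries fitted.

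Promoters of MCM3 and E2F1 are shown because both genes fell and both hold letters that E2F factors are known to bind. They run from 250 bases before the start site to 50 after it, 5′ to 3′ on the gene's strand, from RefSeq (GRCh38.p14): MCM3 at chr6:52284693-52284992, minus strand, and E2F1 at chr20:33686336-33686635, minus strand. Capitals mark matches, on either strand, to TTTGGCGC, TTTCCCGC, TTTGCCGC or TTTCGCGC.
MCM3: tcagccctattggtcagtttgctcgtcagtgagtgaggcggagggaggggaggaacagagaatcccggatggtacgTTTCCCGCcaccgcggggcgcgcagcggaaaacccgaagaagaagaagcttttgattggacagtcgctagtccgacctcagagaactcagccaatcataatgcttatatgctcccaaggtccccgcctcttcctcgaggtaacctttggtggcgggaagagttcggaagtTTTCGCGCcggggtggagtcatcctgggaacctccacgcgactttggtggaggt
E2F1: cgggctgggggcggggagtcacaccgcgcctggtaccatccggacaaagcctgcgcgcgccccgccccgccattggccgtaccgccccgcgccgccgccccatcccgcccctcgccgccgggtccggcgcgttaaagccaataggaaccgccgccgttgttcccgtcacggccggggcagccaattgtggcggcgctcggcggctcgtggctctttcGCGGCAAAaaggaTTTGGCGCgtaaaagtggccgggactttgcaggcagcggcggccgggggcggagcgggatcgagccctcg
In MCM3 the matches start 174 and 4 bases before the start site, and in E2F1 33 and 20 bases before it. Such a match was present in 12 of the 26 replication genes that fell and had a promoter in the table (46.2%), and in 15 of 38 of those tested (39.5%). It was present in 39 of the 283 genes that fell (13.8%), 1 of the 99 that rose (1.01%), 5.51% of the 9200 tested genes with a promoter and 3.33% of all 27305 promoters. A match is a description of these letters only.

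Mitosis genes gave the lowest median of the lists named here, -0.63. Of 66 tested, 38 fell and 0 rose. BUB1B, a kinase-like protein of the spindle checkpoint (chr15:40161023-40221136, plus strand), read 7.62, 7.30 and 7.99 FPKM with drug alone and 3.59, 4.42 and 4.31 with the combination. The drug-only libraries lay close together and all combination libraries were well below them. BUB1B changed by -0.76 ± 0.08 (adjusted p = 0.00119). BIRC5, or survivin, part of the chromosomal passenger complex (chr17:78214186-78225636, plus strand), read 22.3, 19.4 and 18.1 FPKM against 10.1, 9.47 and 9.52. The groups were separated by a gap wider than the spread within either. BIRC5 changed by -0.97 ± 0.09 (adjusted p = 7.12e-04). Its partner kinase AURKB changed by -1.06 ± 0.16, the spindle assembly factor TPX2 by -0.64 ± 0.07, and LMNB1, a nuclear lamin, by -0.81 ± 0.08. CCNB1, cyclin B1, read 41.1, 26.2 and 27.4 FPKM against 17.1, 18.6 and 17.4, with nab-paclitaxel 1 apart from its group (-0.77 ± 0.16, adjusted p = 0.0225). CDK1, the kinase that cyclin B1 activates, read 26.7, 15.1 and 17.6 FPKM against 11.03, 13.8 and 10.4. Its groups did not overlap, but nab-paclitaxel 1 was again far above the other two, and CDK1 did not pass (-0.68 ± 0.22, adjusted p = 0.12). The falls numbered 23 without nab-paclitaxel 1 and combination 2 and 20 with only the 6 libraries fitted.

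The BUB1B promoter (RefSeq GRCh38.p14, chr15:40160819-40161118, plus strand, same window) is shown with that of PLK1, a mitotic kinase that also fell (chr16:23678639-23678938, plus strand), as examples of the cell cycle homology region that the DREAM complex is known to read. Capitals mark TTTGAA or TTCGAA on either strand.
BUB1B: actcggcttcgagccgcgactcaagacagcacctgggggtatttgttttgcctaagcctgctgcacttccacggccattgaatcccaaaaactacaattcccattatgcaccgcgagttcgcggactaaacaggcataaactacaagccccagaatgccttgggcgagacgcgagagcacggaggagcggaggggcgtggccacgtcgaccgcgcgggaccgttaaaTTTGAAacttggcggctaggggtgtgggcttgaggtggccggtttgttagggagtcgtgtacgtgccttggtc
PLK1: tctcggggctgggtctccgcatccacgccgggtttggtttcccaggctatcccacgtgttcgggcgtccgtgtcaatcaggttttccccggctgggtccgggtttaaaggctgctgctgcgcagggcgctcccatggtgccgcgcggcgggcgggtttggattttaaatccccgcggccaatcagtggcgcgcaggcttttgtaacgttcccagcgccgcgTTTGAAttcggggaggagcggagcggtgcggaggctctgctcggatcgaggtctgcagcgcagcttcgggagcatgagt
The match starts 23 bases before the start site in BUB1B and 29 before it in PLK1. These letters stood in 22 of the 32 fallen mitosis genes with a promoter in the table (68.8%) and in 40 of the 58 tested (69.0%), so the genes that fell did not hold them more often than the list as a whole. The share was 22.3% of the 283 genes that fell, 12.1% of the 99 that rose, 10.4% of the 9200 tested and 16.6% of all promoters.

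**Figure D2:**
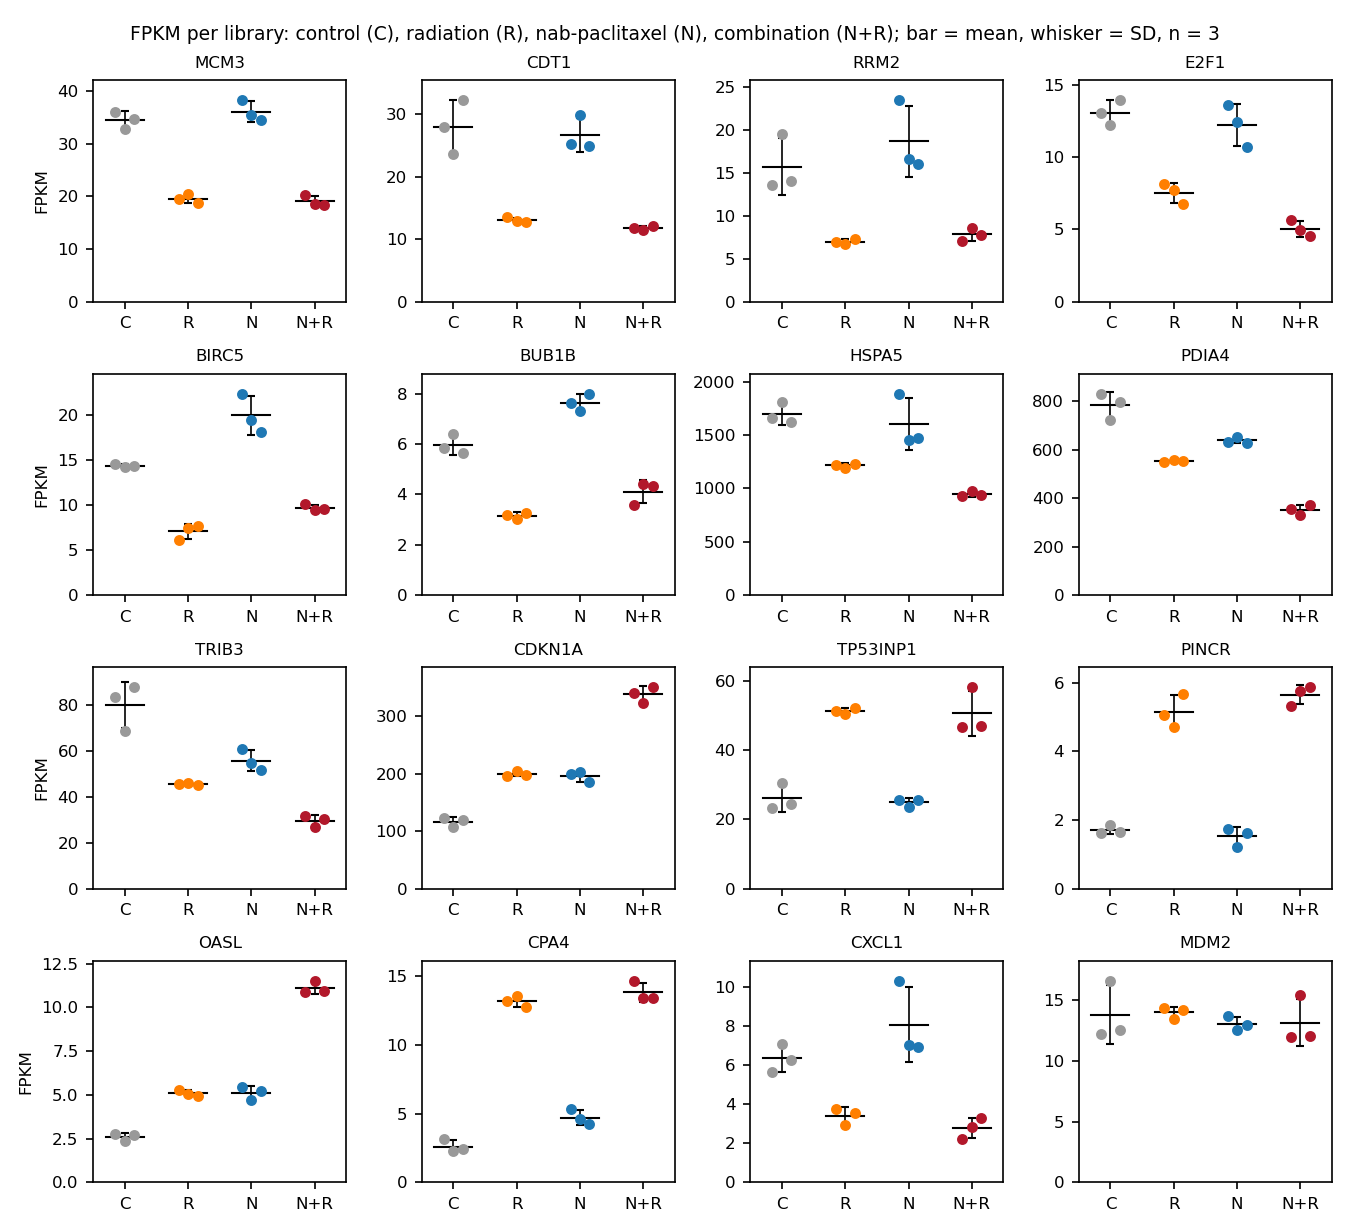
FPKM of 16 genes in each of the 12 libraries (y axis, starting at 0), by group (x axis), with points for libraries, a bar for the mean and whiskers for the SD of 3. Combination libraries lie below the nab-paclitaxel libraries for MCM3, CDT1, RRM2, E2F1, BIRC5, BUB1B, HSPA5, PDIA4, TRIB3 and CXCL1, above them for CDKN1A, TP53INP1, PINCR, OASL and CPA4, and on either side of them for MDM2.

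Repair genes fell in part. Of 36 tested genes of homologous recombination and the Fanconi pathway, 11 fell and 0 rose (median -0.32). They included EXO1, the nuclease that lengthens resected ends (-0.63 ± 0.09, adjusted p = 0.0036), and RAD54L, a DNA translocase of the same pathway (-0.73 ± 0.11, adjusted p = 0.0051). Of 16 end joining genes 1 fell, against 2.7% of all genes tested, and none rose (median -0.10). It was POLQ, the polymerase of microhomology-mediated joining (-0.54 ± 0.12, adjusted p = 0.0325). With no filter on low values 0 of the list fell, and 1 gene does not describe the list. Checkpoint signalling genes fell in 7 of 23, among them H2AFX, the histone whose phosphorylated form marks breaks, from 76.3 ± 10.99 to 45.4 ± 1.48 FPKM. PKMYT1 and WEE1, the kinases that restrain CDK1, changed by -0.74 ± 0.12 and -0.63 ± 0.15. The falls were 7 recombination and 3 checkpoint genes without nab-paclitaxel 1 and combination 2, where PKMYT1 did not pass.

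Replication-dependent histone genes had no falls. Of 65 listed genes, 18 reached the level for testing, and 3 of these rose (median 0.28). HIST1H2BD read 36.5, 31.6 and 32.9 FPKM with drug alone and 59.3, 55.0 and 54.2 with the combination. The 3 combination libraries were all higher by a wide margin (0.72 ± 0.09, adjusted p = 0.00157). HIST1H2AC changed by 0.79 ± 0.14 and HIST2H2BE by 0.60 ± 0.10. These genes have near-identical copies, so how their fragments were divided is uncertain. The libraries were made with an mRNA kit, and how fully it captured histone RNA was not tested. Without nab-paclitaxel 1 and combination 2, 4 rose, and with only the 6 libraries fitted 1 did.

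Genes of protein folding in the endoplasmic reticulum fell, 17 of 35 with 0 rises and a median of -0.37. HSPA5, the main chaperone of that compartment, also called BiP (chr9:125234853-125241330, minus strand), read 1885, 1454 and 1467 FPKM with drug alone and 926, 974 and 935 with the combination. Nab-paclitaxel 1 stood above its group, while the other two still lay far above every combination library. HSPA5 changed by -0.75 ± 0.10 (adjusted p = 0.00343), but by -0.32 and without passing after quantile normalization. PDIA4, a disulfide isomerase (chr7:149003062-149028641, minus strand), read 633, 651 and 629 FPKM against 353, 330 and 372. Both groups were tight and widely apart (-0.86 ± 0.08, adjusted p = 6.47e-04). DNAJB11, a cochaperone of BiP, changed by -0.68 ± 0.07 and HERPUD1, of the degradation machinery, by -0.71 ± 0.09. HSP90B1, the ER form of HSP90, read 1416, 943 and 969 FPKM against 608, 677 and 568 (-0.82 ± 0.16, adjusted p = 0.0146). XBP1, the transcription factor of this response, read 77.1, 54.5 and 54.9 FPKM against 46.9, 50.1 and 44.1 and did not pass (-0.38 ± 0.12, adjusted p = 0.118). When nab-paclitaxel 1 and combination 2 were left out 9 of the 35 fell, and with only the 6 libraries fitted 3 did.

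HSPA5 and HSP90B1 are shown because their promoters hold the ER stress response element, CCAAT and CCACG with 9 bases of any kind between them on either strand, which unfolded-protein factors are known to bind (RefSeq GRCh38.p14, chr9:125241294-125241593, minus strand, and chr12:103930160-103930459, plus strand). Capitals mark the fixed letters of each match.
HSPA5: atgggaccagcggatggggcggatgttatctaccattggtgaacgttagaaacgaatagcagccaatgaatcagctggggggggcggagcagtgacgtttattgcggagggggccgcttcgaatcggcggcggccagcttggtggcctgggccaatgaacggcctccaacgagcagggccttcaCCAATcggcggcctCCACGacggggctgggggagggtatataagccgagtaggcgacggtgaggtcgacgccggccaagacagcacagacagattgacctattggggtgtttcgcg
HSP90B1: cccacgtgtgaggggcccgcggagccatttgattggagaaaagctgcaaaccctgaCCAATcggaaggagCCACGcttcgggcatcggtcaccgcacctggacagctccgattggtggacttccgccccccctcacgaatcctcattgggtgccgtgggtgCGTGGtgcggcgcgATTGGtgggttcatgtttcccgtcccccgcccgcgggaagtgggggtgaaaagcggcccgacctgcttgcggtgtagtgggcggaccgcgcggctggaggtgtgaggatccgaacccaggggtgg
The match starts 66 bases before the start site in HSPA5, and 194 and 89 bases before it in HSP90B1, the second on the opposite strand. The element stood in 22 of all 27305 promoters (0.0806%) and 15 of the 9200 tested (0.163%). Of the 283 genes that fell 5 held it, namely CALR, CANX, CRELD2, HSP90B1 and HSPA5, and of the 99 that rose 0 did. All 5 belong to the endoplasmic reticulum list, of which 7 of 32 tested members with a promoter held it.

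The neighbouring integrated stress response, in which ATF4 drives genes of amino acid supply, fell in 10 of 36 tested genes with 0 rises (median -0.37). TRIB3, a pseudokinase induced by ATF4 (chr20:362835-397559, plus strand), read 60.9, 55.0 and 51.9 FPKM with drug alone and 31.6, 27.1 and 30.5 with the combination. All combination libraries were far below the drug-only ones (-0.89 ± 0.10, adjusted p = 0.00124). ATF4 itself went from 230 ± 11.2 to 165 ± 19.4 FPKM (-0.48 ± 0.11, adjusted p = 0.0299) and its partner DDIT3, or CHOP, from 70.6 ± 4.09 to 45.9 ± 5.98 (-0.62 ± 0.12, adjusted p = 0.0176). PCK2, a mitochondrial enzyme of gluconeogenesis, changed by -0.61 ± 0.10. ASNS, asparagine synthetase, was at 5.73 ± 0.949 and 5.02 ± 0.192 FPKM and did not pass. When nab-paclitaxel 1 and combination 2 were left out 4 of the 36 fell, and with only the 6 libraries fitted 3 did. Cytosolic heat shock genes gave 0 calls of 21.

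Among p53 target genes, 12 of 38 rose and 0 fell (median 0.33). CDKN1A (chr6:36676460-36687339, plus strand) read 199, 204 and 185 FPKM with drug alone and 341, 322 and 350 with the combination. Each group was narrow and the gap between them wide (0.78 ± 0.08, adjusted p = 7.32e-04). TP53INP1, a p53 cofactor, read 25.7, 23.5 and 25.5 FPKM against 46.6, 58.1 and 47.0, with combination 2 the highest (0.99 ± 0.11, adjusted p = 0.00121). PLK2 and PLK3, stress-induced relatives of PLK1, changed by 0.66 ± 0.07 and 0.68 ± 0.08. PPM1D, the phosphatase that turns p53 signalling off, changed by 0.52 ± 0.07, BTG2, an antiproliferative factor, by 0.60 ± 0.09, and DDB2, a sensor of ultraviolet lesions, by 0.54 ± 0.10. Not all of the list moved. MDM2, the ubiquitin ligase of p53, read 13.7, 12.6 and 13.0 FPKM against 12.01, 15.4 and 12.04, with groups that overlapped (0.00 ± 0.12, adjusted p = 0.998). GDF15, a secreted stress factor, read 1103, 1086 and 989 FPKM against 905, 696 and 839, lower in every combination library without passing (-0.39 ± 0.12, adjusted p = 0.0999). BBC3 and FAS, which promote apoptosis, did not pass (adjusted p = 0.572 and 0.264). Of 30 apoptosis regulators BAK1 rose (0.45 ± 0.08, adjusted p = 0.0146, but 0.058 without nab-paclitaxel 1 and combination 2) and none fell. Among all genes tested 1.21% rose, so 1 rise among 30 does not describe the list. Of the 38 p53 target genes 8 rose without nab-paclitaxel 1 and combination 2, and 5 with only the 6 libraries fitted.

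The genes with the largest rises were mostly outside these lists. PINCR, a long noncoding RNA known to be induced by p53 (chrX:43176994-43226598, plus strand), read 1.74, 1.23 and 1.62 FPKM with drug alone and 5.33, 5.76 and 5.87 with the combination. Every combination library was several times above every drug-only library (1.40 ± 0.10, adjusted p = 1.51e-04). PURPL, another p53-linked noncoding RNA, changed by 1.01 ± 0.12. CPA4, a secreted carboxypeptidase (chr7:130293134-130324180, plus strand), read 5.31, 4.57 and 4.24 FPKM against 14.6, 13.4 and 13.4. Its groups were again clearly apart (1.38 ± 0.10, adjusted p = 1.51e-04). The kallikrein protease KLK5 (1.25 ± 0.16) and the membrane protein SUSD2 (1.09 ± 0.16) followed, and TCTEX1D4, a dynein light chain, changed by 1.41 ± 0.22 from uneven drug-only values of 1.42, 2.25 and 4.08 FPKM. LGALS7B changed by 1.35 ± 0.15 but has a near-identical copy, LGALS7, so its share is uncertain.

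Interferon-stimulated genes rose in 4 of 31 with 0 falls (median 0.17). OASL, an oligoadenylate synthetase-like antiviral protein (chr12:121019111-121039242, minus strand), read 5.44, 4.73 and 5.20 FPKM with drug alone and 10.9, 11.5 and 10.9 with the combination. The combination libraries all stood far above the drug-only ones, with little spread (0.99 ± 0.08, adjusted p = 1.69e-04). ISG15, a ubiquitin-like modifier, read 116, 113 and 86.5 FPKM against 190, 154 and 167 (0.69 ± 0.15, adjusted p = 0.0244), and IFIT2 changed by 0.66 ± 0.09 and PARP14 by 0.39 ± 0.10. Of the 11 nucleic acid sensors and adaptors 0 passed. Without nab-paclitaxel 1 and combination 2, 5 of the 31 rose, PARP14 not among them, and with only the 6 libraries fitted 1 did.

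Chemokines, a guidance ligand and a growth factor were among the secreted signals that fell. CXCL1, a neutrophil chemokine (chr4:73869393-73871242, plus strand), read 10.3, 7.01 and 6.90 FPKM with drug alone and 2.23, 2.82 and 3.27 with the combination. All combination libraries lay far below all drug-only ones (-1.25 ± 0.15, adjusted p = 0.00157). CXCL8, interleukin 8 (chr4:73740506-73743716, plus strand), read 36.7, 20.2 and 21.9 FPKM against 8.90, 11.1 and 10.2, with nab-paclitaxel 1 apart from its group (-1.26 ± 0.22, adjusted p = 0.00971). IER3 was the other NF-kB target to fall, of 23 genes in that list with 3 falls and 0 rises. SEMA3A, a repulsive guidance ligand, changed by -1.05 ± 0.16 and EREG, an EGF receptor ligand, by -0.90 ± 0.16. Of 25 senescence-associated secreted genes, 2 rose, among them TIMP2 (0.38 ± 0.07), and CXCL1, CXCL8 and EREG fell. Of 12 genes whose products signal to macrophages, the ER chaperone CALR and the nuclear protein HMGB1, which act on phagocytes once outside the cell, fell (-0.60 ± 0.12 and -0.53 ± 0.12) and none rose. Neither passed without nab-paclitaxel 1 and combination 2 (adjusted p = 0.077 for CALR and 0.093 for HMGB1). CSF1, the macrophage growth factor, was at 1.45 ± 0.119 and 1.78 ± 0.22 FPKM (adjusted p = 0.414), and CD47, which inhibits phagocytosis, at 10.2 ± 1.42 and 10.2 ± 1.73 (adjusted p = 0.991).

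Among 35 tubulin and microtubule genes, which include the drug's target, TUBB and TUBA1B fell (-0.45 ± 0.07 and -0.61 ± 0.11) and none rose (median -0.06). In MHC class I and antigen presentation, 3 of 18 fell, and these were the ER folding proteins CALR, CANX and PDIA3, of which PDIA3 alone passed without nab-paclitaxel 1 and combination 2. Of 15 biliary genes, the transcription factor SOX9 rose (0.29 ± 0.07, adjusted p = 0.0463) and SOX4 fell (-0.30 ± 0.07, adjusted p = 0.0379), and neither passed without those libraries. Of 79 ribosomal protein genes 5 fell and 0 rose (median -0.28, between -0.29 and -0.11 over the scalings tried). Without nab-paclitaxel 1 and combination 2, 2 fell and the median was -0.10, and with only the 6 libraries fitted 0 fell. The 10 NKG2D and checkpoint ligands and the 25 YAP and TEAD targets gave 0 calls. ACTB, often used as a reference gene, fell (-0.44 ± 0.08, adjusted p = 0.0153) but did not pass after quantile normalization (-0.27), and GAPDH did not pass (-0.11 ± 0.11, adjusted p = 0.691). Of the other lists, 2 of 29 TGF-beta and BMP genes, among them THBS1, and 2 of 15 integrin and laminin genes, among them LAMA3, rose. NQO1 and SLC7A11 fell among 30 oxidative stress genes, SREBF1 among 29 cholesterol genes, MT1E among 6 metallothioneins and SPARC among 10 genes of paclitaxel transport and albumin uptake. In hypoxia and glycolysis (33 genes) SLC2A3 rose and HK2 fell. In AP-1 and immediate early genes (34) DUSP4 rose and IER3, DUSP6 and KLF2 fell, and among EMT genes (19) 2 rose and ESRP1 fell. Among all genes tested 1.21% rose and 2.7% fell, so 1 fall among 29 or 33 genes is near the share of all genes. With those 2 libraries left out, the calls of THBS1, LAMA3, SLC7A11, SREBF1, MT1E, SPARC, SLC2A3, DUSP4, DUSP6, KLF2 and ESRP1 were lost, and the integrin and laminin list gave 0. The share of fragments from mitochondrially encoded mRNA was 10.6 ± 1.39% with drug alone and 11.6 ± 1.59% with the combination (SD, n = 3, exact two-sided permutation p = 0.4, the smallest possible being 0.1).

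**Figure D3:**
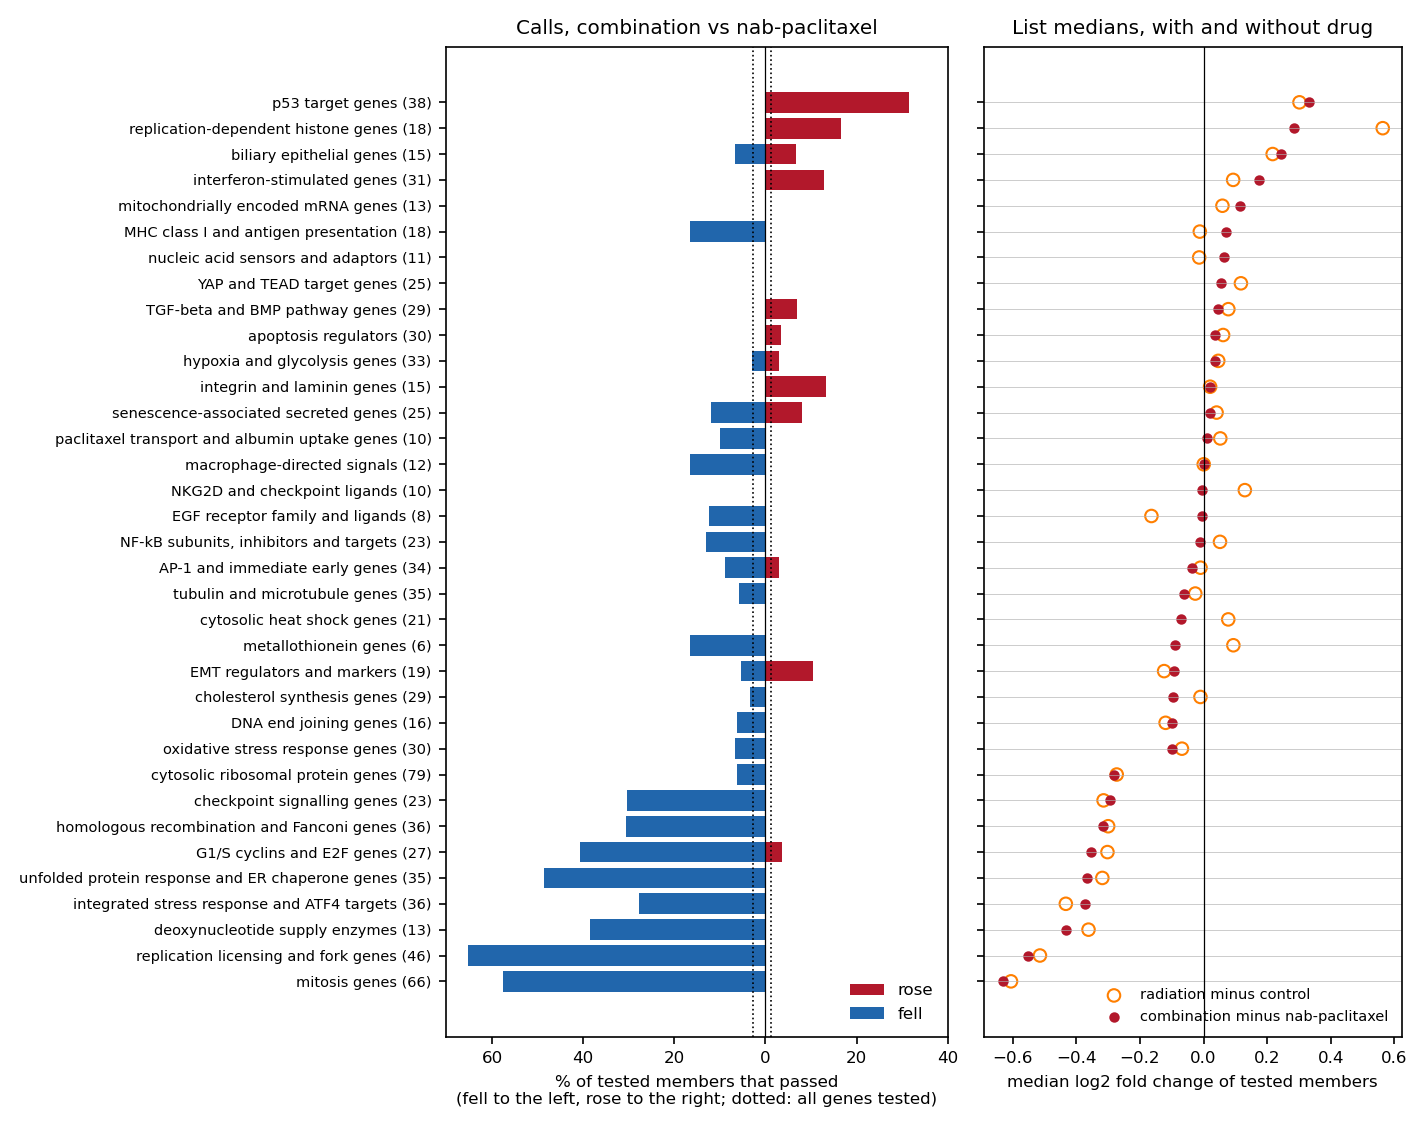
Left, the percent of each list's tested members (number in brackets) that fell (blue) or rose (red) with the combination against nab-paclitaxel, with dotted lines at the 2.7% and 1.21% of all genes. Right, the median log2 fold change of each list with drug (filled) and without (open), which lie close together for replication and mitosis genes and apart for histone genes (0.28 and 0.56).

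Without drug, the same dose of radiation called 807 genes (5.93%), 337 higher (2.48%) and 470 lower (3.45%). The balance depended on scaling, with 478 higher and 374 lower in the voom fit and 481 and 482 after quantile normalization. The libraries of the 2 contrasts are separate, although control 2 deviated together with nab-paclitaxel 1 and combination 2. Both contrasts used the same estimate of each gene's spread, from all 12 libraries, so their calls are not independent. Of the 533 genes called with drug, 358 were also called without it, all in the same direction: 102 rose and 256 fell in both. These are 67.2% of the genes called with drug and 44.4% of those called without. Of the 533, 521 had the same sign without drug, against 73.5% of all genes tested. Across all genes the 2 changes had a Pearson r of 0.58 (Spearman 0.62), and 0.52 without the 3 libraries named above. Genes are not independent replicates, and this is a description.

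List medians with and without drug are given side by side. The replication genes had medians of -0.55 with drug and -0.51 without, the mitosis genes -0.63 and -0.61, and the p53 targets 0.33 and 0.30. CDKN1A changed by 0.78 with drug and 0.77 without, from a base of 196 FPKM in drug-treated and 117 in untreated cells. MCM3 changed by -0.89 and -0.79 and BIRC5 by -0.97 and -0.93. ATF4 targets had medians of -0.37 and -0.43 and ER folding genes -0.37 and -0.32, and histone genes 0.28 and 0.56. Over the 337 genes that rose without drug the median was 0.52 there and 0.30 with drug, and over the 165 that rose with drug 0.51 with it and 0.44 without. Each set was chosen by its own contrast, which favours that contrast's values.

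**Figure D4:**
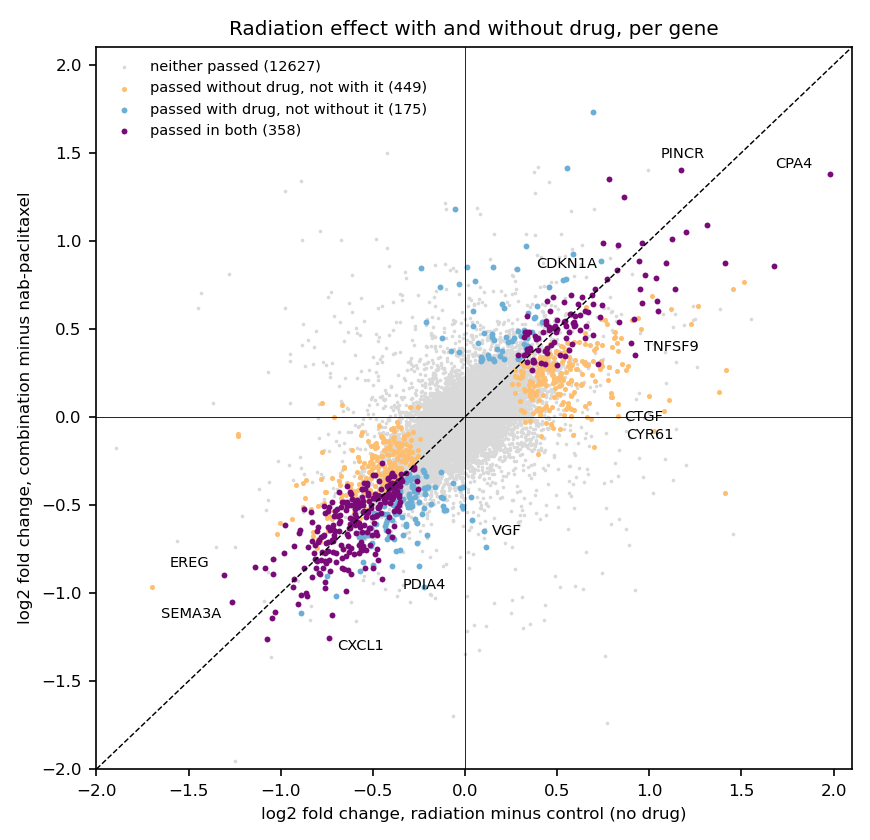
Each point is a gene tested: its log2 fold change from radiation without drug (x axis) against that with drug (y axis), coloured by the contrasts in which it passed, with a dashed line of equal change. The 358 genes that passed in both have the same direction in each, which passing in both favours. Some lie off the line, as CPA4 does (1.38 with drug and 1.98 without). CYR61 and CTGF lie near 0 on the y axis and at 0.83 on the x axis.

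The test of the difference between the 2 radiation effects, limma's interaction term, passed for 0 of 13609 genes. Its smallest adjusted p was 0.989, and 443 genes had an unadjusted p under 0.05. These are 3.26% of the genes tested, a share below the 0.05 that the threshold itself allows. With single libraries left out the number ran from 337 (without radiation 2) to 669 (without nab-paclitaxel 1). Without control 2, nab-paclitaxel 1 and combination 2, a choice made after seeing the data, it was 1345, and 0 passed. The share was 10.7% of the genes called with drug and 17.1% of those called without. Those sets were chosen by the contrasts that make up the difference, which can raise such a share. The median SE of the interaction term was 0.18, against 0.13 for the effect with drug. The values below describe some of the genes with small unadjusted p, and none passed. CYR61, a secreted matrix protein and YAP target (chr1:85580761-85583962, plus strand), read 11.2, 14.3 and 13.1 FPKM with drug alone and 14.005, 11.1 and 13.7 with the combination. These groups overlapped (0.01 ± 0.11), while without drug CYR61 went from a mean of 9.09 to 17.0 FPKM (0.83). The difference was -0.82 ± 0.16 (unadjusted p = 2.8e-04). CTGF, its close relative (chr6:131948176-131951373, minus strand), changed by 0.07 with drug and 0.83 without (difference -0.76 ± 0.15, unadjusted p = 3.9e-04). Over the 25 tested YAP and TEAD targets the median difference was -0.04, with 14 negative and 11 positive. TNFSF9, the ligand of the lymphocyte receptor 4-1BB, changed by 0.35 and 0.92 (difference -0.57 ± 0.12, unadjusted p = 5.3e-04). In the other direction AL022328.1, a gene of low level, changed by 0.54 and -0.55 (difference 1.09 ± 0.22, unadjusted p = 3.9e-04), and GPR15, a chemoattractant receptor, changed by 0.00 and -0.71 (difference 0.71 ± 0.18, unadjusted p = 0.0019).

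Further genes had an unadjusted p under 0.05 for the difference without passing. CPA4 changed by 1.38 with drug and 1.98 without (difference -0.60 ± 0.14, unadjusted p = 0.0014). PLK2 changed by 0.66 and 1.04 (unadjusted p = 0.0037) and THBS1 by 0.42 and 0.90 (unadjusted p = 9.9e-04). PDIA4 changed by -0.86 with drug and -0.50 without (unadjusted p = 0.0081), and E2F1 by -1.13 and -0.72 (unadjusted p = 0.02). KLF2, a flow-responsive transcription factor, changed by -0.51 with drug and -0.02 without (unadjusted p = 0.0025). Of the 533 genes 12 had opposite signs in the 2 contrasts. VGF, a secreted neuropeptide precursor chosen here after its values were seen, read 64.4, 65.0 and 53.6 FPKM with drug alone and 40.8, 34.5 and 40.2 with the combination. Its combination libraries were all lower (-0.65 ± 0.12), while without drug its means were 39.4 and 42.2 FPKM (0.10, adjusted p = 0.73).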

How the data were processed

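The authors deposited FPKM values per gene for all 12 libraries. The build is hg38, as the submitters' processing notes list it. Which aligner and counting tool, strand setting and definition of gene length were used is not given in the sources used here. Per the labels' protocols, libraries were made with an mRNA kit from total RNA. Per gene, the deposited FPKM values are whole multiples of 1 fragment (within 0.05), which gave recovered totals of 14840283 to 17992242 fragments per library. They also show that the per-million factor of a library does not follow its own recovered total, so levels between libraries rest on the authors' scaling. How that factor was set was not tested.

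Values were used as log2(FPKM + 1). Genes averaging 1 FPKM or more were fitted with limma 3.58.1 in R 4.3.3 (group means, trended prior) over all 12 libraries, which share 1 estimate of the spread, with Benjamini-Hochberg adjustment over all 13609 genes and a threshold of 0.05. Contrasts were combination minus nab-paclitaxel, radiation minus control, and their difference. The fit was tested on simulated data. The mitochondrial share was tested by exact permutation in scipy 1.17.1. Alternatives were other scalings, filters, pseudocounts, fits and left-out libraries.

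Genes named are the 10 largest rises and falls (at least 2 FPKM in the higher group, no overlap), up to 4 genes with the smallest p per list, the 5 smallest interaction p per direction, and ACTB, GAPDH, CDKN1A, MDM2 and GDF15. Further list members were named for their role. A few genes the rule picks are not reported. The members and lists were chosen with earlier results of these data known. RefSeq promoters matched 9200 of 13551 tested symbols.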

Additional observations from a re-analysis of the deposited data

How the results depend on the processing

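The naming rule picked 92 genes that passed with the combination against nab-paclitaxel, not all of them printed. Of these, 0 changed direction under the alternatives in which they were fitted, which for the filter of 5 FPKM were 76 and for protein-coding genes 86. Genes named for their role alone were not counted. Without nab-paclitaxel 1 and combination 2, 31 of the 92 no longer passed. Control 2 stayed in that fit. With control 2 left out as well, a choice also made after seeing the data, 4 of the 92 no longer passed. In that fit 35 of 46 replication genes, 48 of 66 mitosis genes and 22 of 35 endoplasmic reticulum genes fell. There 21 of 38 p53 target genes rose, and 6 of 79 ribosomal protein genes fell. Of the 533 genes called, 156 were called without each library in turn. Under every alternative other than those chosen after seeing the data, 62 were called. These alternatives include the fit of only the groups compared and the filter of 5 FPKM, from which genes of lower mean drop out. The number was also 62 when the fits that leave out single libraries were not counted. The count was 276 with no filter on low values, 93 with only the groups compared, and 177 to 734 with single libraries left out. Without nab-paclitaxel 1 and combination 2 it was 255, and without control 2 as well 1301, both chosen after seeing the data. For radiation against control the count was 320 to 1305 with single libraries left out (320 without radiation 2, 337 without radiation 1, 329 without radiation 3, 476 without control 1, 1305 without nab-paclitaxel 1), and 1318 and 2947 without those 2 and 3 libraries. The interaction gave 0 under all alternatives except no filter, where 5 genes passed, each with at most 2 fragments in any library. The mitochondrial difference of 0.997 percentage points ranged from 0.317 to 1.89 with single libraries left out. The cause of these differences was not tested. Fewer samples leave fewer degrees of freedom.

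With the replicate number as a block, 306 genes passed with drug and 531 without. Same-numbered libraries of the nab-paclitaxel and combination groups deviated with r of -0.21, -0.39 and 0.07. Deviations of the 3 libraries of a group depend on each other, and nab-paclitaxel 1 deviated together with combination 2 (r = 0.33). These values therefore cannot decide whether the numbers pair the libraries.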

Other observations

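Genes of RNA splicing, a list drawn up after the values were seen, fell in 12 of 38 tested members with 0 rises and a median of -0.33. SRSF1, an SR protein that selects splice sites, read 26.8, 22.3 and 22.9 FPKM with drug alone and 10.8, 12.7 and 11.3 with the combination. All combination libraries lay far below the drug-only ones (-0.99 ± 0.14, adjusted p = 0.00425 from limma). HNRNPM changed by -0.67 ± 0.09, HNRNPA2B1 by -0.54 ± 0.08 and TRA2B by -0.57 ± 0.10. In 26 of the 38 the groups did not overlap with the combination lower, against 12.3% of all genes tested. When nab-paclitaxel 1 and combination 2 were left out 9 fell, and with only the 6 libraries fitted 1 did.

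Kallikreins, serpin B genes and genes of squamous epithelium, also listed after the values were seen, rose in 4 of 19 and fell in 1. SERPINB5, or maspin, a serpin without protease inhibition, read 19.7, 14.4 and 16.4 FPKM with drug alone and 26.8, 35.2 and 30.2 with the combination. The groups did not overlap (0.83 ± 0.14, adjusted p = 0.00816). KLK5, KLK6 (0.48 ± 0.12) and LGALS7B rose and SLPI, an inhibitor of neutrophil elastase, fell (-1.01 ± 0.20, adjusted p = 0.0204). Without nab-paclitaxel 1 and combination 2, 3 rose and 0 fell. CYP24A1, the enzyme that inactivates vitamin D, went from 64.4 ± 3.16 to 107 ± 5.61 FPKM and ALDH1A3, which makes retinoic acid, from 115 ± 4.80 to 174 ± 1.30 (SD, n = 3). Both were chosen after their values were seen.

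Long noncoding RNAs made up 12.7% of the genes that rose, 1.90% of those that fell and 8.22% of those tested, as the annotation types them. The median nab-paclitaxel level was 5.94 FPKM for the genes that rose, 12.2 for those that fell and 5.93 for all tested. ACTA2, the smooth muscle actin counted among the fibroblast markers, rose from 1.52 ± 0.367 to 3.05 ± 0.308 FPKM (0.69 ± 0.13, adjusted p = 0.0127) and did not pass without nab-paclitaxel 1 and combination 2, while the sum of the fibroblast list was 38.0 to 44.3 FPKM with drug alone and 36.8 to 38.6 with the combination.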
